A study of Mus musculus with 56 samples.

Results

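Ribosome footprints of mouse liver labelled 3 months were compared with those labelled 1 month, gene by gene. The comparison uses 6 of the 56 libraries of the series, 3 for each age, chosen by the age in their labels, and all 18 liver footprint libraries shared the estimate of spread. All the livers came from C57BL/6 mice with no treatment, transgene or deletion named in the labels. The groups differ in the age label alone, and sex is not given: Ddx3y, a Y-linked gene, lay between 23.8 and 96.3 CPM (counts scaled to a common library total) in the 18 libraries. The series states 3 animals for each of these ages and does not say that libraries were pooled, so p-values measure the spread between these libraries. Because 1 of the 3-month libraries stands apart, a gene is said to hold when it passed the test in the same direction both with all libraries and without 3-month library 1.

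A footprint is the short stretch of messenger RNA that a ribosome protects from nuclease, so footprint counts follow how much of a gene's message is being translated. The liver is mostly hepatocytes, with resident macrophages called Kupffer cells lining its blood vessels, along with endothelial, stellate and circulating blood cells. Trem2, a lipid-sensing receptor, and Gpnmb, a membrane glycoprotein of lysosomes, mark macrophages that have taken up lipid or cell debris. Hepatocytes of male and female mice also differ in many secreted proteins and detoxifying enzymes, a difference that is set up around puberty by the pattern of growth hormone release.

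Alb, which encodes serum albumin, was at 77521, 46991 and 62468 CPM at 1 month and 30523, 59834 and 78137 CPM at 3 months, listed here and below in the order of libraries 1, 2 and 3. The tissue label therefore matched its defining marker in all 6 libraries, while 3-month library 1 had the lowest level. Total counts were 10292261, 14493065 and 14226868 at 1 month and 15008692, 26921222 and 16833314 at 3 months. Over the genes tested, the median correlation with the remaining liver footprint libraries was 0.918 for 3-month library 1 and 0.959 to 0.982 for the other 17. Kap, a kidney gene, reached 13.3 CPM in 1-month library 1 and at most 1.15 CPM in the other 5 compared libraries. If the group names are sorted as text rather than by number, the 3-month group comes in place 6 of 6, after 32 months, and the 1-month group in place 2, after the group whose titles read 10m and whose age field reads 11 months. H19, an imprinted RNA gene that falls silent after birth, had a mean of 14.7 CPM in that group, 0.203 CPM at 1 month and 1.40 CPM at 3 months. Ages below are those of the labels, and whether labels were displaced was not tested.

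Of 13608 genes tested, 1674 were called at an adjusted p below 0.05, which is 12.3%, with 1211 higher at 3 months (8.9%) and 463 lower (3.4%). Without 3-month library 1, 331 genes were called. Both fits called 318 genes in the same direction, which is 2.34% of those tested: 237 held as higher (1.74%) and 81 as lower (0.595%). The genes that held as higher had a median log2 difference of 2.11, and 212 of them exceeded a doubling. Those that held as lower had a median of −0.96, and 36 of them fell below a halving. For comparison, the median over all genes tested was −0.030. Among the 237 genes that held as higher, 179 had their highest 3-month level in library 1. With scaling by library size alone the share of calls that were higher was 82.8% instead of 72.3%, and the median over all genes moved to 0.086.

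The count of calls depends on the libraries. It was 941, 571 and 224 without 1-month library 1, 2 or 3, and 3240 without 3-month library 3, and a fit of the 6 compared libraries alone called 0 genes at an adjusted p below 0.05 with 2590 at an unadjusted p below 0.05. Trem2 and Gpnmb were called in each of the 6 fits that leave out 1 compared library, as were 164 genes in all, 120 of them higher and 44 lower.

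**Figure D1:**
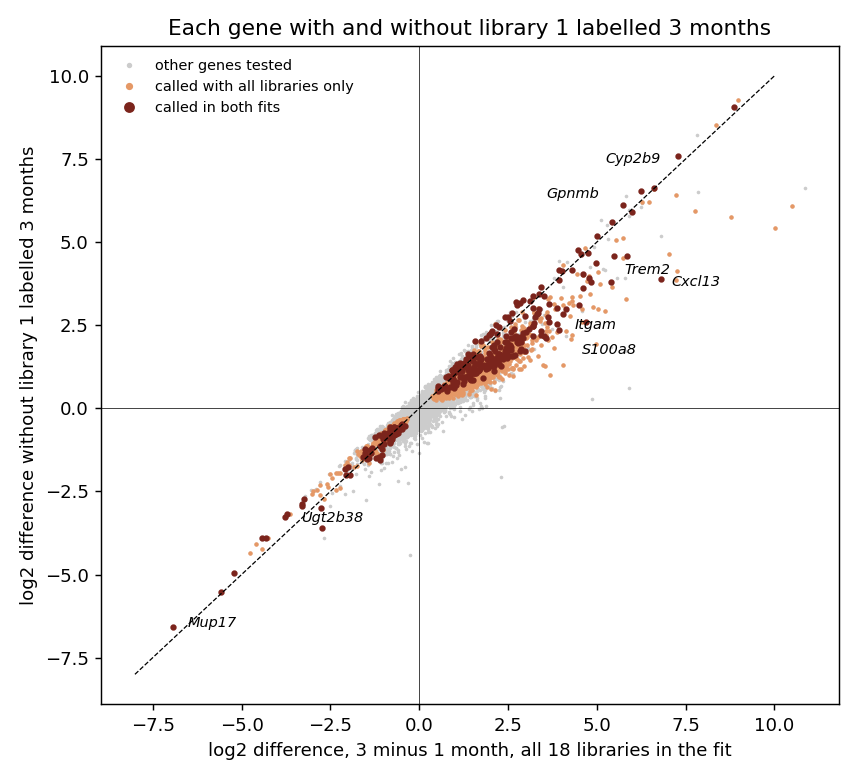
Each point is a gene, with its log2 difference between 3 months and 1 month in the fit with all 18 liver footprint libraries (horizontal axis) and in the fit without 3-month library 1 (vertical axis). Dark points are the 318 genes called in both fits, orange points are called with all libraries only, and the dashed line marks equal values, below which S100a8 and Cxcl13 lie on the higher side.

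Trem2, which lies on chromosome 17 at 48346401 to 48352276 (GRCm38.p6), was at 0.0972, 0.552 and 0.141 CPM at 1 month and 31.4, 11.7 and 2.38 CPM at 3 months. All 3-month libraries were above all 1-month libraries, in the order 1, 2, 3, and the other 12 liver libraries ran from 0.0567 to 3.14 CPM (median 0.910). The log2 difference for Trem2 was 5.48 ± 0.76 with all libraries (adjusted p = 0.00229) and 4.58 ± 0.64 without 3-month library 1 (adjusted p = 0.00327). Gpnmb, on chromosome 6 at 49036518 to 49058182, was at 0.194, 0.207 and 0.141 CPM at 1 month and 4.46, 15.8 and 10.6 CPM at 3 months. In bulk samples more macrophages and more of this RNA in each cannot be told apart. The Gpnmb groups did not overlap either, and here 3-month library 1 was the lowest of the 3, so Gpnmb did not follow the order seen for Trem2. Gpnmb differed by 5.73 ± 0.83 with all libraries (adjusted p = 0.00324) and 6.12 ± 0.73 without 3-month library 1 (adjusted p = 0.00169).

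The letters upstream of 4 of these macrophage genes are shown because PU.1, the transcription factor that macrophages depend on, recognises a core written GAGGAA, or TTCCTC on the other strand. Each window holds the 250 bases before the gene's first annotated base in RefSeq (GRCm38.p6), read 5′ to 3′ along the gene, with every copy of that core in capitals. Trem2 and Gpnmb are the defining pair, Itgam is a monocyte gene and Vsig4 a Kupffer cell gene.
Trem2 (chr17:48346151-48346400, plus strand): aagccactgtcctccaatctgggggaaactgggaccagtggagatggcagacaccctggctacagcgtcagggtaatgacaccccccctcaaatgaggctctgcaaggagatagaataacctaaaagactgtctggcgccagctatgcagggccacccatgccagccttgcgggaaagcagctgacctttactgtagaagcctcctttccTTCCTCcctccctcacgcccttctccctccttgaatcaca
Gpnmb (chr6:49036268-49036517, plus strand): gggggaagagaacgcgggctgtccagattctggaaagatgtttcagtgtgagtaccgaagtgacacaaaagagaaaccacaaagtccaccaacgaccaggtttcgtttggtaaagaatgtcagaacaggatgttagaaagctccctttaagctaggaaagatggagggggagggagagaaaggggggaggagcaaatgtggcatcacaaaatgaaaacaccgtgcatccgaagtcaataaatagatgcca
Itgam (chr7:128062390-128062639, plus strand): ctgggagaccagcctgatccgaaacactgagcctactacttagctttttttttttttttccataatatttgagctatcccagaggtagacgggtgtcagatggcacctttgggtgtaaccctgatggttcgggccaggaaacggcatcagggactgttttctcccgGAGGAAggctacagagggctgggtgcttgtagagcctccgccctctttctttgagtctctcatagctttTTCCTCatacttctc
Vsig4 (chrX:96293439-96293688, minus strand): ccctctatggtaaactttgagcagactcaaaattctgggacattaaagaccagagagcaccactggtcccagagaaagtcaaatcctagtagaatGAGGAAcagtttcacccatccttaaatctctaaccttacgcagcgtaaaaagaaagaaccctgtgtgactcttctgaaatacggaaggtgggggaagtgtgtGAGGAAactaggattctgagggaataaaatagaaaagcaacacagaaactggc

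The Trem2 window holds 1 copy of the core, those of Itgam and Vsig4 hold 2 each, and that of Gpnmb holds 0. Over the whole table, with the first window listed for each gene, 6252 of 27025 windows (23.1%) contain the core. So do 22.3% of the 10264 tested genes with a window. Such a window can lie partly within its gene, as those of the Mup genes below do. Of the 237 genes that held as higher, 181 have a window and 51 of these contain the core (28.2%). Of the 81 that held as lower, 65 have a window and 8 contain it (12.3%). A second motif, the E-box CACGTG found before many lysosomal genes, is in 6.05% of all windows, in 8.48% of those of tested genes and in 11 of the same 181 (6.08%). Neither motif contains the other, and a match is only a description of these letters.

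The list of lipid-associated macrophage genes had 17 members tested of 18. Of these, 12 were called higher and 1 lower, where 8.9% and 3.4% of all genes tested were. In all, 9 held as higher and 1 as lower, where 1.74% and 0.595% of all genes did. These shares of all genes also stand beside the counts of the lists below. At an unadjusted p under 0.05 in both edgeR fits the count was 13, and by DESeq2 12 held. The list includes Trem2 and Gpnmb and, like the other lists, was written with earlier results of these data known. Its counts are therefore a description. Its median log2 difference was 2.15 with all libraries and 1.84 without 3-month library 1. Lgals3, which encodes the sugar-binding protein galectin-3, was at 2.53, 4.76 and 4.08 CPM at 1 month and 48.4, 24.3 and 9.56 CPM at 3 months. Its groups did not overlap, and it differed by 2.64 ± 0.43 with all libraries (adjusted p = 0.00454) and 2.11 ± 0.39 without 3-month library 1 (adjusted p = 0.0139). Atp6v0d2, a subunit of the lysosomal proton pump made in macrophages and osteoclasts, was at 2.43, 0.759 and 1.62 CPM at 1 month and 30.6, 20.3 and 5.17 CPM at 3 months. All 3-month libraries were higher, and the difference was 3.38 ± 0.59 with all libraries (adjusted p = 0.00603) and 2.98 ± 0.60 without 3-month library 1 (adjusted p = 0.0226).

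Ms4a7, a membrane protein of macrophages, was at 0.972, 0.483 and 0.211 CPM at 1 month and 25.3, 6.54 and 2.08 CPM at 3 months, again without overlap, and differed by 4.13 ± 0.79 with all libraries (adjusted p = 0.00792) and 2.98 ± 0.66 without 3-month library 1 (adjusted p = 0.0315). Capg, an actin-capping protein, Cd63, a tetraspanin of late endosomes, Mmp12, the macrophage elastase, and Clec7a, the beta-glucan receptor dectin-1, also held as higher, with log2 differences of 3.33, 1.75, 2.76 and 2.76. Plin2, which coats lipid droplets and is made by hepatocytes as well, was the member that fell. It was at 396, 343 and 403 CPM at 1 month and 323, 214 and 174 CPM at 3 months, with all 3-month libraries below all 1-month libraries. Plin2 differed by −0.83 ± 0.21 with all libraries (adjusted p = 0.0203) and −0.98 ± 0.23 without 3-month library 1 (adjusted p = 0.0353). Havcr2, the TIM-3 receptor of macrophages and lymphocytes, is in no list and was among the 12 largest rises that the naming rule takes. It was at 0.583, 0.345 and 0.281 CPM at 1 month and 26.1, 5.57 and 1.37 CPM at 3 months and differed by 4.51 ± 0.80 with all libraries (adjusted p = 0.00603) and 3.09 ± 0.59 without 3-month library 1 (adjusted p = 0.0151). Clec7a, Mmp12, Ms4a7 and Plin2 were not called without 1-month library 3 (adjusted p = 0.0526, 0.088, 0.0506 and 0.0726). Plin2 was not called without 1-month library 1 (adjusted p = 0.0636) either, and Mmp12 was not called without 1-month library 2 (adjusted p = 0.0569). The Plin2 call was not made without 3-month library 2 (adjusted p = 0.0597) nor with scaling by library size alone (adjusted p = 0.0703).

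**Figure D2:**
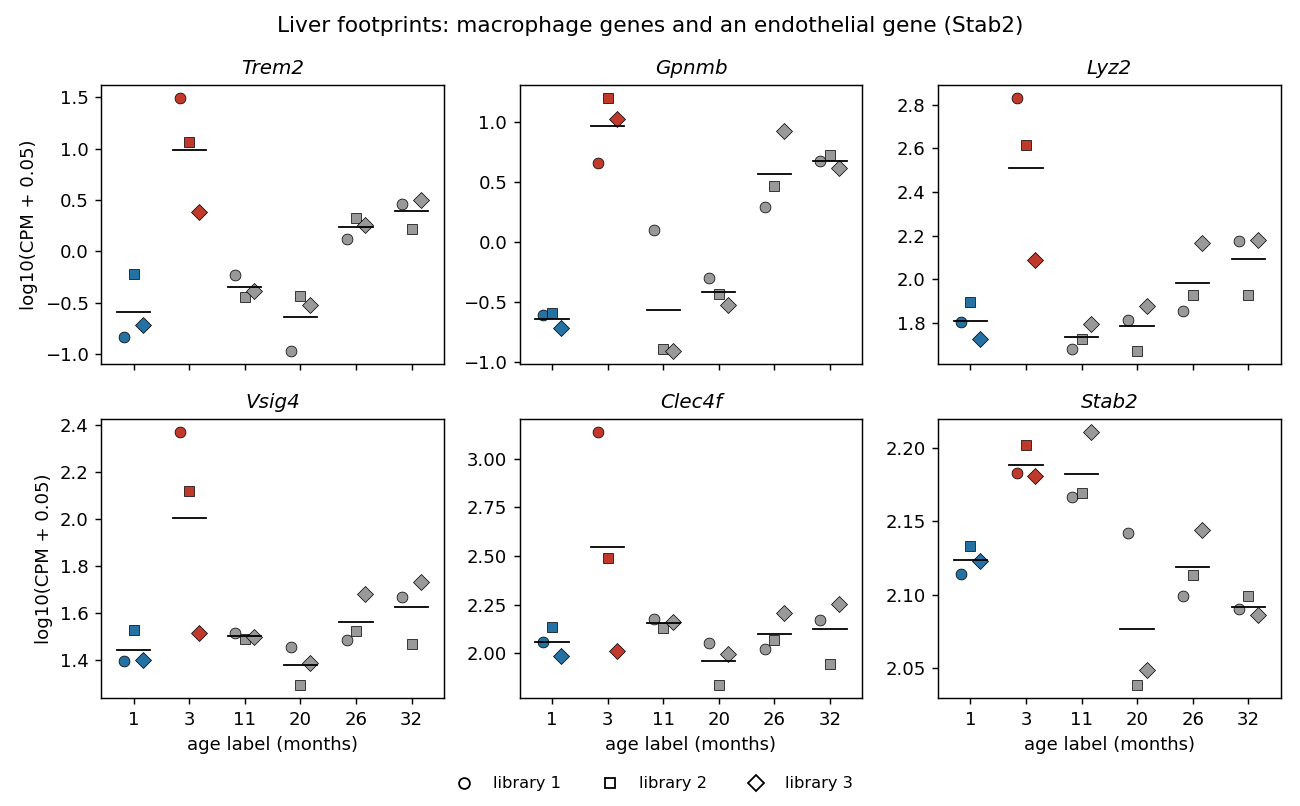
Levels of 5 macrophage genes and of the endothelial gene Stab2 in the 18 liver footprint libraries, as log10 of CPM plus 0.05 against the age label in months. Circles, squares and diamonds are libraries 1, 2 and 3, lines are means of the log values, and colour marks 1 month (blue) and 3 months (red). Trem2 and Gpnmb are above the 1-month libraries in all 3-month libraries, whereas Vsig4 and Clec4f in 3-month library 3 lie within the 1-month range.

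General macrophage genes rose too, but few of them held at the adjusted threshold of edgeR. All 18 members of the pan-macrophage list were called higher with all libraries, and 3 held. At an unadjusted p under 0.05 in both edgeR fits the count was 16, and by DESeq2 9 held. In 7 members the groups did not overlap, where 12.4% of all tested genes were higher at 3 months without overlap. The list's median log2 difference was 1.90 with all libraries and 1.06 without 3-month library 1. Its summed level was 730.0, 775 and 606 CPM at 1 month and 5611, 2439 and 803 CPM at 3 months, with 427 to 1273 CPM in the other 12 libraries. Lyz2, which encodes lysozyme, was at 63.9, 78.7 and 53.5 CPM at 1 month and 679, 413 and 122 CPM at 3 months. All 3-month libraries were higher, and Lyz2 differed by 2.42 ± 0.39 with all libraries (adjusted p = 0.00383) and 1.98 ± 0.36 without 3-month library 1 (adjusted p = 0.0139). Cd68, a glycoprotein of macrophage lysosomes, was at 9.72, 11.5 and 6.75 CPM at 1 month and 142, 41.6 and 15.03 CPM at 3 months and differed by 2.58 ± 0.51 with all libraries (adjusted p = 0.00906) and 1.57 ± 0.37 without 3-month library 1 (adjusted p = 0.0378). Cd68 was not called without 1-month library 3 (adjusted p = 0.0551).

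Of 12 Kupffer cell genes, 9 were called higher and 1 held, and the median was 1.87 with all libraries and 0.76 without 3-month library 1. At an unadjusted p under 0.05 in both edgeR fits the count was 10, and by DESeq2 1 held. Vsig4, a complement receptor of Kupffer cells, was at 25.0, 33.7 and 25.2 CPM at 1 month and 235, 132 and 32.8 CPM at 3 months. It held with differences of 2.04 ± 0.40 and 1.503 ± 0.36, adjusted p 0.00845 and 0.0414, although 3-month library 3 lay within the 1-month range. Clec4f, the lectin that defines Kupffer cells, was at 114, 137 and 96.2 CPM at 1 month and 1380.0, 308 and 103 CPM at 3 months. Library 3 again lay within the 1-month range, and Clec4f was called with all libraries only (adjusted p = 0.0203, and 0.2 without library 1). Vsig4 was not called without 1-month library 3 (adjusted p = 0.0506).

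Of 10 monocyte genes, 9 were called higher and 1 held. That gene was Itgam, the CD11b integrin chain of monocytes and neutrophils, at 0.291, 0.276 and 0.211 CPM at 1 month and 12.1, 2.90 and 0.891 CPM at 3 months. Its 3-month libraries were above all 15 other liver libraries, and it differed by 4.06 ± 0.80 with all libraries (adjusted p = 0.00865) and 2.82 ± 0.67 without 3-month library 1 (adjusted p = 0.0391). All 8 tested neutrophil genes were called higher and 0 held, with a median of 4.52 with all libraries and 2.97 without 3-month library 1. At an unadjusted p under 0.05 in both edgeR fits the count was 7, and by DESeq2 1 held. S100a8, the abundant neutrophil calcium-binding protein, was at 0.486, 0.690 and 0.141 CPM at 1 month and 28.1, 3.19 and 0.594 CPM at 3 months. Its groups overlapped, and the adjusted p was 0.0126 with all libraries and 0.0871 without library 1. Lcn2, an iron-trapping protein of neutrophils and stressed hepatocytes, was at 2.14, 20.6 and 1.12 CPM at 1 month and 654, 290.2 and 10.6 CPM at 3 months and reached 609.5 CPM in a library of another age. Itgam was not called without 1-month library 3 (adjusted p = 0.0515).

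The next 5 groups, of receptors, enzymes and adaptors that phagocytes use, were composed after the held genes had been seen, so their counts are a description. Of 7 genes of the phagocyte NADPH oxidase, which makes superoxide, 7 were called higher and 4 held. Ncf1, its cytosolic organiser, was at 4.37, 5.80 and 4.29 CPM at 1 month and 92.5, 25.0 and 7.60 CPM at 3 months and differed by 2.85 ± 0.53 with all libraries (adjusted p = 0.00769) and 1.72 ± 0.34 without 3-month library 1 (adjusted p = 0.0193). Cybb, its catalytic chain, was at 24.2, 27.7 and 27.3 CPM at 1 month and 270.3, 138 and 33.0 CPM at 3 months, and the proton channel Hvcn1 and the membrane partner Cyba held as well. In all 4 the 3-month libraries were above the 1-month ones and ran in the order 1, 2, 3. Of 13 tested receptors for chemoattractants, 11 were called higher and 7 held.

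C5ar1, the receptor for complement fragment C5a, was at 0.874, 1.31 and 1.12 CPM at 1 month and 18.4, 7.99 and 3.09 CPM at 3 months, without overlap, and differed by 2.92 ± 0.47 with all libraries (adjusted p = 0.0037) and 2.28 ± 0.40 without 3-month library 1 (adjusted p = 0.012). C3ar1, its counterpart for C3a, was at 4.76, 5.38 and 4.22 CPM at 1 month and 53.8, 18.7 and 9.56 CPM at 3 months and differed by 2.29 ± 0.40 with all libraries (adjusted p = 0.0059) and 1.54 ± 0.28 without 3-month library 1 (adjusted p = 0.012). The receptors Fpr1 for formyl peptides, Ptafr for platelet-activating factor, Cmklr1 for chemerin, Ccr1 for chemokines and Hcar2 for hydroxy fatty acids completed the 7, with log2 differences of 2.45, 2.11, 2.47, 2.97 and 3.50. Among 15 Toll-like receptors and adaptors 9 were called higher, 1 lower and 3 held. Tlr13, which senses bacterial ribosomal RNA in mice, was at 2.82, 2.28 and 2.25 CPM at 1 month and 51.1, 22.7 and 5.35 CPM at 3 months, again without overlap, and differed by 3.21 ± 0.50 with all libraries (adjusted p = 0.00362) and 2.48 ± 0.42 without 3-month library 1 (adjusted p = 0.0112). Tlr7, which senses single-stranded RNA, and Irak3, an inhibitory adaptor, were the other two. Of 8 C-type lectin receptors 7 were called higher and 2 held (Clec4n and Clec7a). Of 12 genes of signalling through immunoreceptor activation motifs, 12 were called higher and 3 held: Syk, a tyrosine kinase, Blnk, an adaptor, and Inpp5d, the phosphatase SHIP-1. Syk was at 8.94, 7.80 and 7.59 CPM at 1 month and 112, 35.0 and 12.8 CPM at 3 months and differed by 2.47 ± 0.48 with all libraries (adjusted p = 0.00851) and 1.53 ± 0.35 without 3-month library 1 (adjusted p = 0.033). Cyba, Fpr1, Ccr1, Hcar2, Tlr7, Irak3, Inpp5d and Syk were not called without 1-month library 3 (adjusted p = 0.0598, 0.0506, 0.0627, 0.0636, 0.054, 0.0522, 0.0515 and 0.0506), and Ccr1 was not called without 1-month library 2 (adjusted p = 0.055).

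Among 14 tested chemokines and chemokine receptors, 7 were called higher and 4 held, with a median of 2.16 with all libraries and 1.503 without 3-month library 1. Cxcl13, which attracts B cells, was at 0.680, 1.73 and 0.843 CPM at 1 month and 436, 33.8 and 1.25 CPM at 3 months. It had the widest spread, with library 1 far above the others and library 3 within the 1-month range, and it differed by 6.81 ± 1.33 with all libraries (adjusted p = 0.00906) and 3.90 ± 0.81 without 3-month library 1 (adjusted p = 0.027). Ccl6, a myeloid chemokine of rodents, was at 8.36, 9.87 and 5.55 CPM at 1 month and 273, 59.8 and 11.7 CPM at 3 months, without overlap, and differed by 3.57 ± 0.69 with all libraries (adjusted p = 0.00845) and 2.12 ± 0.47 without 3-month library 1 (adjusted p = 0.0335). Cxcl1, which attracts neutrophils, was at 2.62, 3.24 and 3.23 CPM at 1 month and 16.2, 25.1 and 4.63 CPM at 3 months. All its 3-month values were higher, library 2 most, and it differed by 2.19 ± 0.49 with all libraries (adjusted p = 0.0126) and 2.23 ± 0.53 without 3-month library 1 (adjusted p = 0.0391). Cxcl16, a membrane-bound ligand for lymphocytes, rose less, by 1.23 ± 0.24 with all libraries (adjusted p = 0.00827) and 0.95 ± 0.22 without 3-month library 1 (adjusted p = 0.0378). Cxcl13, Ccl6, Cxcl1 and Cxcl16 were not called without 1-month library 3 (adjusted p = 0.0541, 0.0528, 0.0598 and 0.0506), and Cxcl1 was not called without 3-month library 2 (adjusted p = 0.0506).

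All 5 tested platelet genes were called higher and 2 held, Pf4 and Ppbp, both chemokines stored in platelet granules. Pf4 was at 0.389, 0.690 and 0.351 CPM at 1 month and 61.2, 12.6 and 1.66 CPM at 3 months, without overlap, and differed by 5.39 ± 0.90 with all libraries (adjusted p = 0.00495) and 3.81 ± 0.65 without 3-month library 1 (adjusted p = 0.0114). Ppbp was at 0.291, 1.03 and 0.562 CPM at 1 month and 55.0, 4.68 and 3.39 CPM at 3 months, with library 1 well above the other 3-month libraries, and differed by 4.69 ± 0.88 with all libraries (adjusted p = 0.00784) and 2.61 ± 0.52 without 3-month library 1 (adjusted p = 0.0184). Of 18 genes of B cells and plasma cells, 10 were called higher and 2 held. Igha, the constant region of IgA, was at 0.777, 0.207 and 0.141 CPM at 1 month and 24.4, 13.6 and 1.43 CPM at 3 months, also without overlap, and differed by 4.99 ± 0.89 with all libraries (adjusted p = 0.00619) and 4.36 ± 0.88 without 3-month library 1 (adjusted p = 0.0226). Iglc1, a lambda light-chain constant region, was at 0, 0.138 and 0.0703 CPM at 1 month and 4.33, 1.67 and 1.13 CPM at 3 months and differed by 4.62 ± 0.84 with all libraries (adjusted p = 0.00641) and 4.05 ± 0.85 without 3-month library 1 (adjusted p = 0.0242).

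Ighm, the constant region of IgM, was at 7.87, 6.55 and 3.94 CPM at 1 month and 805, 136 and 24.1 CPM at 3 months. Its groups did not overlap, but without library 1 the adjusted p rose from 0.01 to 0.0537. Of 16 tested T and NK cell genes, 4 were called higher and 0 held. Ccl5, a chemokine that these cells release, was at 1.26, 0.966 and 0.0703 CPM at 1 month and 13.5, 6.28 and 0.594 CPM at 3 months, with 3-month library 3 within the 1-month range. Cd74, the invariant chain of MHC class II, was at 114, 100.2 and 112 CPM at 1 month and 466, 401 and 80.9 CPM at 3 months, with library 3 below all 1-month libraries, and was not called (adjusted p = 0.0821). Of 26 interferon response genes 7 were called higher and 0 held, with a median of 1.37 with all libraries and 0.44 without 3-month library 1. The 30 cell cycle genes gave 8 called higher and 0 that held, with a median of 1.23 with all libraries and 0.45 without 3-month library 1. For these 3 lists, 4, 6 and 8 genes passed an unadjusted p under 0.05 in both edgeR fits, and 0, 0 and 2 held by DESeq2.

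Of 10 tested genes of red cells and their precursors, 6 were called higher and 4 held, with a median of 1.08 with all libraries and 1.20 without 3-month library 1. The 4 that held were the globins Hba-a1, Hba-a2, Hbb-bs and Hbb-bt, a group composed after the held genes had been seen. Hba-a1, an alpha globin, was at 29.9, 23.0 and 18.8 CPM at 1 month and 45.2, 51.6 and 70.2 CPM at 3 months, and here library 3 was the highest of the 3-month libraries. Its groups did not overlap, and it differed by 1.15 ± 0.23 with all libraries (adjusted p = 0.00926) and 1.37 ± 0.21 without 3-month library 1 (adjusted p = 0.00711). Hbb-bs, the main adult beta globin, was at 127, 101 and 58.3 CPM at 1 month and 151, 199 and 225 CPM at 3 months and differed by 0.93 ± 0.27 with all libraries (adjusted p = 0.0356) and 1.16 ± 0.26 without 3-month library 1 (adjusted p = 0.0323). Hbb-bt, its neighbour, was at 18.8, 16.5 and 7.31 CPM at 1 month and 51.8, 31.02 and 35.3 CPM at 3 months, with library 1 the highest of the 3-month libraries, and differed by 1.34 ± 0.27 with all libraries (adjusted p = 0.00906) and 1.23 ± 0.29 without 3-month library 1 (adjusted p = 0.0378). Alas2, the first enzyme of heme synthesis in red cell precursors, was at 177, 132 and 139 CPM at 1 month and 43.7, 108 and 138 CPM at 3 months, lowest in 3-month library 1, and its difference of −0.65 ± 0.33 was not called (adjusted p = 0.207). Hba-a1 and Hba-a2 are near-identical copies, as are the beta globins, so how reads were divided between them is uncertain. Against the 12 libraries of other ages Hba-a1 was 0.196 ± 0.18 (adjusted p = 0.493) at 3 months and −0.96 ± 0.196 (adjusted p = 0.0508) at 1 month on the log2 scale. Hba-a2 and Hbb-bs were not called without 1-month library 2 (adjusted p = 0.067 and 0.0832), the same pair not without 3-month library 3 (adjusted p = 0.0574 and 0.0858), and Hbb-bs not without 3-month library 2 (adjusted p = 0.0779). Hba-a1, Hba-a2 and Hbb-bs were not called without 1-month library 3 (adjusted p = 0.0522, 0.0916 and 0.128), whereas Hbb-bt was called in each of the 6 fits that leave out 1 library.

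Of 29 tested genes of matrix and stellate cells, 7 were called higher and 4 held, with a median of 0.61 with all libraries and 0.36 without 3-month library 1. Timp2, an inhibitor of matrix metalloproteinases, was at 17.1, 20.4 and 14.97 CPM at 1 month and 98.7, 38.3 and 35.4 CPM at 3 months. Its 3-month libraries were above all 15 other liver libraries, and it differed by 1.53 ± 0.25 with all libraries (adjusted p = 0.00494) and 1.08 ± 0.19 without 3-month library 1 (adjusted p = 0.0119). Dcn, the proteoglycan decorin, was at 117, 138 and 113 CPM at 1 month and 369.9, 208 and 209 CPM at 3 months, without overlap, and differed by 0.95 ± 0.17 with all libraries (adjusted p = 0.00603) and 0.77 ± 0.16 without 3-month library 1 (adjusted p = 0.0223). Lum, the related proteoglycan lumican, was at 4.08, 7.66 and 5.83 CPM at 1 month and 30.4, 11.8 and 13.3 CPM at 3 months and differed by 1.48 ± 0.28 with all libraries (adjusted p = 0.00791) and 1.09 ± 0.25 without 3-month library 1 (adjusted p = 0.0353). Vim, the filament protein of mesenchymal and white blood cells, differed by 1.91 ± 0.34 with all libraries (adjusted p = 0.00603) and 1.48 ± 0.31 without 3-month library 1 (adjusted p = 0.0244).

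Of 16 endothelial genes 2 were called higher, where 8.9% of all genes tested were, and 1 held. That gene was Vwf, the von Willebrand factor of endothelium and platelets. Vwf was at 17.9, 21.2 and 16.7 CPM at 1 month and 86.8, 37.8 and 28.7 CPM at 3 months, without overlap, and differed by 1.27 ± 0.24 with all libraries (adjusted p = 0.00793) and 0.83 ± 0.18 without 3-month library 1 (adjusted p = 0.0286). Stab2, a scavenger receptor of sinusoidal endothelium, was at 130.1, 136 and 133 CPM at 1 month and 152, 159 and 152 CPM at 3 months; its values did not overlap, but the difference of 0.12 ± 0.13 was not called (adjusted p = 0.587). Of 30 lysosomal genes 15 were called higher and 3 held. Asah1, acid ceramidase, was at 39.9, 41.4 and 43.5 CPM at 1 month and 118, 71.6 and 48.5 CPM at 3 months and differed by 0.77 ± 0.15 with all libraries (adjusted p = 0.00865) and 0.52 ± 0.12 without 3-month library 1 (adjusted p = 0.0332). Among 16 subunits of the lysosomal proton pump, Atp6v0d2 was the member called, and the list's median of 0.15 was close to that of all genes.

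**Figure D3:**
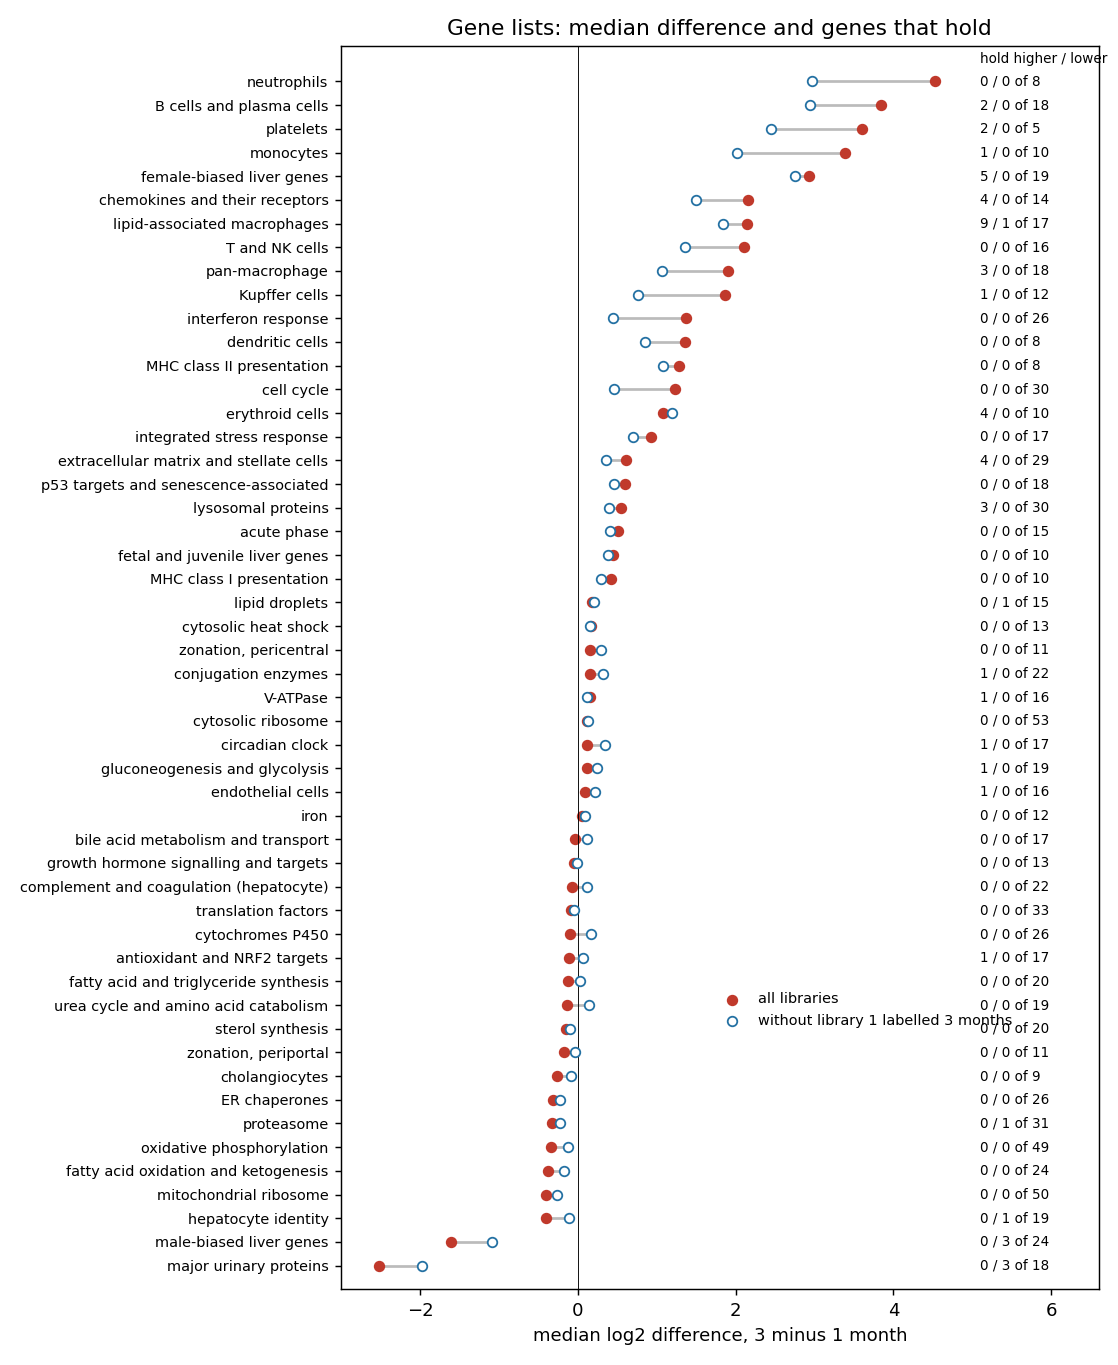
Median log2 difference between 3 months and 1 month for each gene list with at least 5 members tested, with all libraries (red) and without 3-month library 1 (open blue). The numbers at the right are the members that held as higher and as lower, of those tested. Neutrophil genes have the highest median with all libraries and 0 that held, while lipid-associated macrophage genes have 9 that held as higher of 17.

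Some genes that differ between male and female liver were called. Of 24 genes known to be higher in males, 6 were called lower at 3 months and 3 held, with a median of −1.61 with all libraries and −1.08 without 3-month library 1. Of 19 tested genes known to be higher in females, 10 were called higher and 5 held, with a median of 2.93 with all libraries and 2.75 without 3-month library 1. The major urinary proteins, pheromone carriers that hepatocytes of adult males secrete in bulk, had 9 called lower of 18 tested and 3 that held. These copies are near-identical, so the share of reads given to each one is uncertain. Mup17 was at 130.1, 1968 and 1001 CPM at 1 month and 4.73, 6.50 and 14.7 CPM at 3 months. All 3-month libraries were lower, the 1-month libraries spread widely, and Mup17 differed by −6.93 ± 1.02 with all libraries (adjusted p = 0.00362) and −6.58 ± 1.27 without 3-month library 1 (adjusted p = 0.0231). Mup18 was at 6.995, 88.5 and 52.9 CPM at 1 month and 0.933, 1.45 and 1.78 CPM at 3 months and differed by −5.22 ± 0.90 with all libraries (adjusted p = 0.00603) and −4.95 ± 1.12 without 3-month library 1 (adjusted p = 0.0391). Mup14 was at 147, 708 and 309 CPM at 1 month and 8.595, 43.4 and 71.3 CPM at 3 months, without overlap, and differed by −3.23 ± 0.70 with all libraries (adjusted p = 0.0123) and −2.73 ± 0.64 without 3-month library 1 (adjusted p = 0.0413). Mup14 was not called without 1-month library 2 (adjusted p = 0.0521).

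A window of 250 bases at the start of each of these 3 genes in RefSeq (GRCm38.p6) shows how alike the sequences there are. Capitals mark the longest run of letters that all 3 windows share, 68 bases. Each window lies partly within its gene, whose annotated last coordinate is 61304089 for Mup14, 61595865 for Mup17 and 61674132 for Mup18. The shared run lies outside each gene, before its annotated start, so it does not show how alike the messages are. All 3 windows lie on chromosome 4 and are read from the minus strand.
Mup14 (chr4:61303999-61304248, minus strand): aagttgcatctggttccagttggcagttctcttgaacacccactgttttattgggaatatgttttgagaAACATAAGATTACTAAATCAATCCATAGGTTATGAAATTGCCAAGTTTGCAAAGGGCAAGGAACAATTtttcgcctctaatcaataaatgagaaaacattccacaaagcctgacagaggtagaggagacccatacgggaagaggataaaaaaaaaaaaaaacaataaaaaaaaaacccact
Mup17 (chr4:61595833-61596082, minus strand): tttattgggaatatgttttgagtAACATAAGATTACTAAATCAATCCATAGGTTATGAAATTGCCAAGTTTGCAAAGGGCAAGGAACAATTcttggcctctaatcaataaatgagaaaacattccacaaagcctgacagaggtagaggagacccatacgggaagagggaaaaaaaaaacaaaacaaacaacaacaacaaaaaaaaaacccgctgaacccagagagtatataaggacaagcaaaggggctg
Mup18 (chr4:61674095-61674344, minus strand): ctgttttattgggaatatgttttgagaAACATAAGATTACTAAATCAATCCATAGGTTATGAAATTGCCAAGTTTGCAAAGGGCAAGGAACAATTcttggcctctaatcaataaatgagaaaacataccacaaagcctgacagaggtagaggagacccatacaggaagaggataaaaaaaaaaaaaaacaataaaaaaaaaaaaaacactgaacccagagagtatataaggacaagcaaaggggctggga

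Elovl3, a fatty acid elongase that male mice express more, was at 228, 169.9 and 160.1 CPM at 1 month and 7.73, 10.2 and 38.5 CPM at 3 months. Its groups did not overlap, with 3-month library 3 nearest to the 1-month level, and it differed by −3.30 ± 0.64 with all libraries (adjusted p = 0.00857) and −2.88 ± 0.68 without 3-month library 1 (adjusted p = 0.0431). Ugt2b38, a glucuronosyltransferase, was at 18.8, 21.7 and 18.3 CPM at 1 month and 0.133, 0.854 and 3.50 CPM at 3 months. Its 1-month libraries were tightly grouped above all 15 others, and it differed by −3.72 ± 0.61 with all libraries (adjusted p = 0.00455) and −3.19 ± 0.46 without 3-month library 1 (adjusted p = 0.00464). In the opposite direction, Cyp2b9, a female-biased cytochrome P450, was at 0, 0.0690 and 0.211 CPM at 1 month and 10.3, 37.8 and 6.65 CPM at 3 months. The 1-month libraries were at or near 0, and Cyp2b9 differed by 7.28 ± 1.20 with all libraries (adjusted p = 0.00495) and 7.60 ± 1.26 without 3-month library 1 (adjusted p = 0.012). Slc22a26, an organic anion transporter of the liver, was at 0.777, 0.414 and 0.0703 CPM at 1 month and 35.6, 45.7 and 4.63 CPM at 3 months, without overlap, and differed by 6.00 ± 0.92 with all libraries (adjusted p = 0.00362) and 5.92 ± 1.02 without 3-month library 1 (adjusted p = 0.0129). Its neighbour in the family, Slc22a27, was at 0.583, 0.345 and 0.422 CPM at 1 month and 11.8, 6.54 and 1.37 CPM at 3 months and differed by 3.67 ± 0.62 with all libraries (adjusted p = 0.00519) and 3.13 ± 0.61 without 3-month library 1 (adjusted p = 0.0181). Cyp2a22, a further cytochrome P450, held with a difference of 2.51 ± 0.61. Cyp2a22 was not called without 1-month library 3 (adjusted p = 0.0675), 1-month library 1 (adjusted p = 0.0509), 1-month library 2 (adjusted p = 0.067) or 3-month library 2 (adjusted p = 0.0749).

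**Figure D4:**
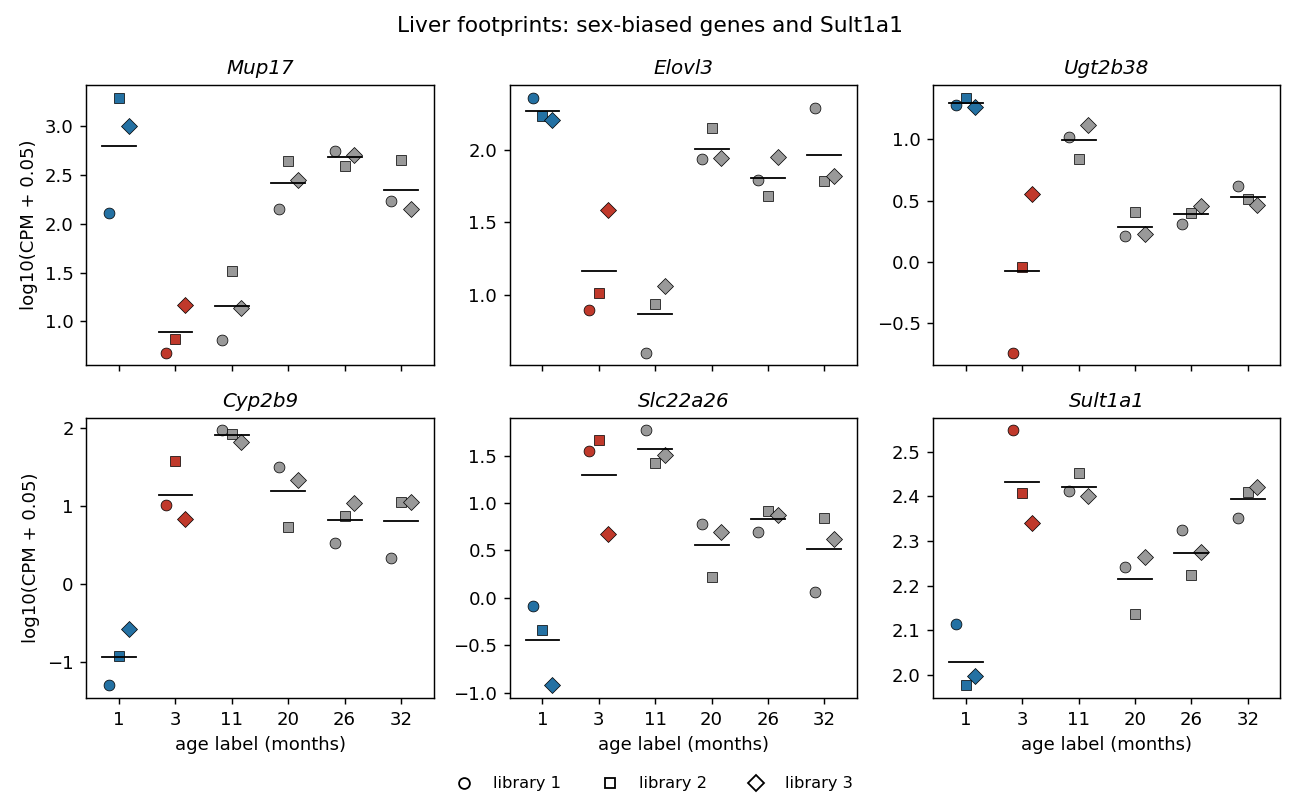
Levels of 3 male-biased genes (Mup17, Elovl3, Ugt2b38), 2 female-biased genes (Cyp2b9, Slc22a26) and Sult1a1 in the 18 liver footprint libraries, as log10 of CPM plus 0.05 against the age label in months. Symbols, lines and colours mark libraries 1, 2 and 3, means of log values, and the 1-month (blue) and 3-month (red) groups. The 1-month libraries are the lowest group for Cyp2b9, Slc22a26 and Sult1a1. For Mup17 and Elovl3 the libraries labelled 11 months are nearer to the 3-month than to the 1-month ones. For Ugt2b38 they lie between the 1-month and 3-month libraries, at 10.4, 6.81 and 12.9 CPM.

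Members of other metabolic lists that held included Sult1a1, Nqo1 and Pkm. Sult1a1, a sulfotransferase for phenols, was the member called and held among 22 conjugation enzymes. It was at 129.9, 94.7 and 99.3 CPM at 1 month and 353, 255 and 219 CPM at 3 months, without overlap, and differed by 1.22 ± 0.16 with all libraries (adjusted p = 0.00174) and 1.13 ± 0.16 without 3-month library 1 (adjusted p = 0.00394). Nqo1, a quinone reductase induced through NRF2, was at 4.57, 3.17 and 5.34 CPM at 1 month and 16.3, 16.3 and 7.72 CPM at 3 months and differed by 1.49 ± 0.28 with all libraries (adjusted p = 0.00744) and 1.45 ± 0.30 without 3-month library 1 (adjusted p = 0.0233). Pkm, the pyruvate kinase of cells other than hepatocytes, held among 19 genes of glucose metabolism, at 14.96, 15.1 and 10.8 CPM at 1 month and 96.7, 45.4 and 21.6 CPM at 3 months. It was highest in library 1 and differed by 1.80 ± 0.34 with all libraries (adjusted p = 0.00792) and 1.27 ± 0.29 without 3-month library 1 (adjusted p = 0.0325). Pkm was not called without 1-month library 3 (adjusted p = 0.0506).

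Among the genes that fell, Dio1, the deiodinase that activates thyroid hormone, was at 94.9, 179 and 152 CPM at 1 month and 50.04, 32.1 and 38.6 CPM at 3 months. Its 3-month libraries were below all 15 other liver libraries, and it differed by −1.94 ± 0.25 with all libraries (adjusted p = 0.00174) and −1.99 ± 0.29 without 3-month library 1 (adjusted p = 0.0048). Cebpa, a transcription factor that defines hepatocytes and is also used by myeloid cells, was at 552, 560.1 and 635 CPM at 1 month and 217, 318 and 372 CPM at 3 months. It too was below all 15 others, and it was the member called and held among 19 hepatocyte identity genes, with a difference of −1.002 ± 0.23 with all libraries (adjusted p = 0.0131) and −0.74 ± 0.17 without 3-month library 1 (adjusted p = 0.0377). Sgk2, a serine/threonine kinase, was at 91.6, 94.0 and 85.5 CPM at 1 month and 17.8, 22.2 and 30.1 CPM at 3 months, without overlap, and differed by −2.01 ± 0.29 with all libraries (adjusted p = 0.00324) and −1.77 ± 0.29 without 3-month library 1 (adjusted p = 0.0104). Psmd6, a regulatory subunit of the proteasome, held among 31 proteasome genes, 2 of which were called lower, where 3.4% of all genes tested were. It was at 53.05, 54.6 and 61.4 CPM at 1 month and 50.2, 41.8 and 39.7 CPM at 3 months and differed by −0.47 ± 0.10 with all libraries (adjusted p = 0.0105) and −0.46 ± 0.11 without 3-month library 1 (adjusted p = 0.0433). Cebpa and Psmd6 were not called without 1-month library 3 (adjusted p = 0.0589 and 0.0556), and Psmd6 was not called with scaling by library size alone (adjusted p = 0.0743).

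The carboxylesterase and retinoic acid groups were composed after the held genes had been seen. Of 13 tested carboxylesterases, which split esters and amides, 1 held as higher (Ces1g) and 2 as lower. Ces2b was at 1.85, 10.3 and 3.73 CPM at 1 month and 0.0666, 0.260 and 0.475 CPM at 3 months and differed by −4.32 ± 0.73 with all libraries (adjusted p = 0.00502) and −3.89 ± 0.77 without 3-month library 1 (adjusted p = 0.0185). Ces4a was at 3.11, 8.49 and 6.61 CPM at 1 month and 0, 0.297 and 0.535 CPM at 3 months, also without overlap, and differed by −4.44 ± 0.70 with all libraries (adjusted p = 0.00362) and −3.91 ± 0.66 without 3-month library 1 (adjusted p = 0.0112). Of 6 tested genes of retinoic acid metabolism 3 held as higher. Cyp26a1, an enzyme that breaks retinoic acid down, was at 17.9, 34.9 and 21.6 CPM at 1 month and 80.0, 137 and 99.6 CPM at 3 months, without overlap, and differed by 2.00 ± 0.48 with all libraries (adjusted p = 0.0161) and 2.24 ± 0.51 without 3-month library 1 (adjusted p = 0.0388). Cyp26b1, with the same role, differed by 2.85 ± 0.54 with all libraries (adjusted p = 0.00792) and 3.16 ± 0.56 without 3-month library 1 (adjusted p = 0.0139). Aldh1a3, which makes retinoic acid, was at 0.583, 0.414 and 0.281 CPM at 1 month and 3.13, 1.75 and 1.60 CPM at 3 months, above all 15 other liver libraries, and differed by 2.20 ± 0.41 with all libraries (adjusted p = 0.00769) and 1.99 ± 0.44 without 3-month library 1 (adjusted p = 0.0292). Ces1g, Cyp26a1 and Cyp26b1 were not called without 1-month library 3 (adjusted p = 0.0848, 0.0716 and 0.0506), and Ces1g and Cyp26a1 were not called without 1-month library 1 (adjusted p = 0.117 and 0.0578). Ces1g also lost its call without 1-month library 2, 3-month library 2 or 3-month library 3 (adjusted p = 0.0715, 0.109 and 0.0607), and Cyp26a1 with no filter (adjusted p = 0.0543).

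The naming rule also took genes that belong to no list. Cdh19, a cadherin, was at 0, 0.0690 and 0.211 CPM at 1 month and 5.66, 14.4 and 6.30 CPM at 3 months, with 3-month library 2 the highest, and differed by 6.24 ± 0.81 with all libraries (adjusted p = 0.00229) and 6.53 ± 0.79 without 3-month library 1 (adjusted p = 0.00284). Nebl, an actin-binding protein, was at 1.26, 0.552 and 0.281 CPM at 1 month and 9.93, 25.2 and 11.6 CPM at 3 months, in the same order, and differed by 4.47 ± 0.59 with all libraries (adjusted p = 0.00194) and 4.77 ± 0.56 without 3-month library 1 (adjusted p = 0.00169). On the lower side, Tcf24, a basic helix-loop-helix factor, was at 15.4, 0.552 and 1.62 CPM at 1 month and 0.133, 0.111 and 0.119 CPM at 3 months, with 1-month library 1 far above the other libraries of its group. It differed by −5.58 ± 1.07 with all libraries (adjusted p = 0.00794) and −5.54 ± 1.35 without 3-month library 1 (adjusted p = 0.047). Chic1 and Adck5 fell by less: Chic1 differed by −2.06 ± 0.31 with all libraries (adjusted p = 0.00362) and −2.02 ± 0.35 without 3-month library 1 (adjusted p = 0.0114). Adck5, a predicted kinase of mitochondria, was at 39.2, 37.5 and 35.6 CPM at 1 month and 12.7, 12.7 and 14.3 CPM at 3 months and differed by −1.59 ± 0.31 with all libraries (adjusted p = 0.00793) and −1.46 ± 0.34 without 3-month library 1 (adjusted p = 0.0384).

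None of the lists of machinery common to all cells named in this paragraph had a gene that held, but the proteasome, given above, had 1 (Psmd6). Of 53 cytosolic ribosomal proteins 0 were called in either direction, with a median of 0.12; Rpl4 was at 279.5, 336 and 354 CPM at 1 month and 454, 324 and 349 CPM at 3 months (adjusted p = 0.688). Of 33 translation factors 0 were called, and Eef2, which moves the ribosome along the message, was at 1849, 1751 and 1580.1 CPM at 1 month and 2309, 2012 and 2026 CPM at 3 months (adjusted p = 0.47). Of all genes tested, 3.4% were called lower. Mitochondrial ribosomal proteins had 5 called lower of 50 and oxidative phosphorylation 1 lower of 49. Fatty acid oxidation had 3 called lower of 24 and chaperones of the endoplasmic reticulum 3 lower of 26. The medians of these lists, in that order, were −0.40, −0.34, −0.38 and −0.31. Sterol synthesis had 0 called of 20. At an unadjusted p under 0.05, edgeR with all libraries gave 5 cytosolic ribosomal, 3 translation factor and 1 sterol synthesis gene, and DESeq2 called 1, 0 and 1. That edgeR fit also gave 30 mitochondrial ribosomal, 6 oxidative phosphorylation, 8 fatty acid oxidation and 8 chaperone genes at this unadjusted p. Over all 13608 genes tested the number was 3927. The same p in both edgeR fits was met by 10 mitochondrial ribosomal, 1 oxidative phosphorylation, 5 fatty acid oxidation and 5 chaperone genes, and 3, 0, 3 and 1 held by DESeq2. A p above the threshold does not show that these levels were equal.

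To place each group, both were also set against the 12 liver libraries labelled 11, 20, 26 and 32 months. These comparisons share libraries with the main one, so the values are only given side by side. At 3 months 2032 genes were called (14.9%) and at 1 month 33 (0.243%), with 76.8% and 45.5% of them higher. Scaling by library size alone gave 93.9% and 68.5%, and without 3-month library 1 the counts were 109 and 52. Trem2 was 3.96 ± 0.42 (adjusted p = 0.000353) at 3 months and −1.52 ± 0.75 (adjusted p = 0.479) at 1 month on the log2 scale. Lyz2 was 2.04 ± 0.26 (adjusted p = 0.00073) and −0.39 ± 0.30 (adjusted p = 0.676) in the same order. Dio1 was −2.04 ± 0.22 (adjusted p = 0.000353) and −0.10 ± 0.19 (adjusted p = 0.885). In these 3 genes the 3-month group was called and the 1-month group was not, and the same held without 3-month library 1, where the 3-month values were 3.06, 1.59 and −2.10 (adjusted p = 0.00232, 0.0169 and 0.00232).

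Cyp2b9 showed the opposite, with −0.067 ± 0.52 (adjusted p = 0.95) at 3 months and −7.35 ± 1.136 (adjusted p = 0.019) at 1 month. Sult1a1 was 0.16 ± 0.12 (adjusted p = 0.401) and −1.06 ± 0.13 (adjusted p = 0.00696), and Ugt2b38 was −1.35 ± 0.51 (adjusted p = 0.0885) and 2.38 ± 0.38 (adjusted p = 0.0205). Slc22a26 was called in both groups, higher at 3 months and lower at 1 month, with 1.59 ± 0.46 (adjusted p = 0.0294) and −4.41 ± 0.87 (adjusted p = 0.0484), but in neither without 3-month library 1 (adjusted p = 0.233 and 0.0583). Gpnmb was 2.85 ± 0.43 (adjusted p = 0.00119) and −2.88 ± 0.83 (adjusted p = 0.184): its other libraries ran from 0.0729 to 8.34 CPM (median 1.56). Counted by rank instead, 27 of the 237 genes that held as higher were above all 15 other liver libraries in each 3-month library, as were 104 of all genes tested. Of the 81 that held as lower, 9 were below all 15, as were 34 of all genes tested.

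**Figure D5:**
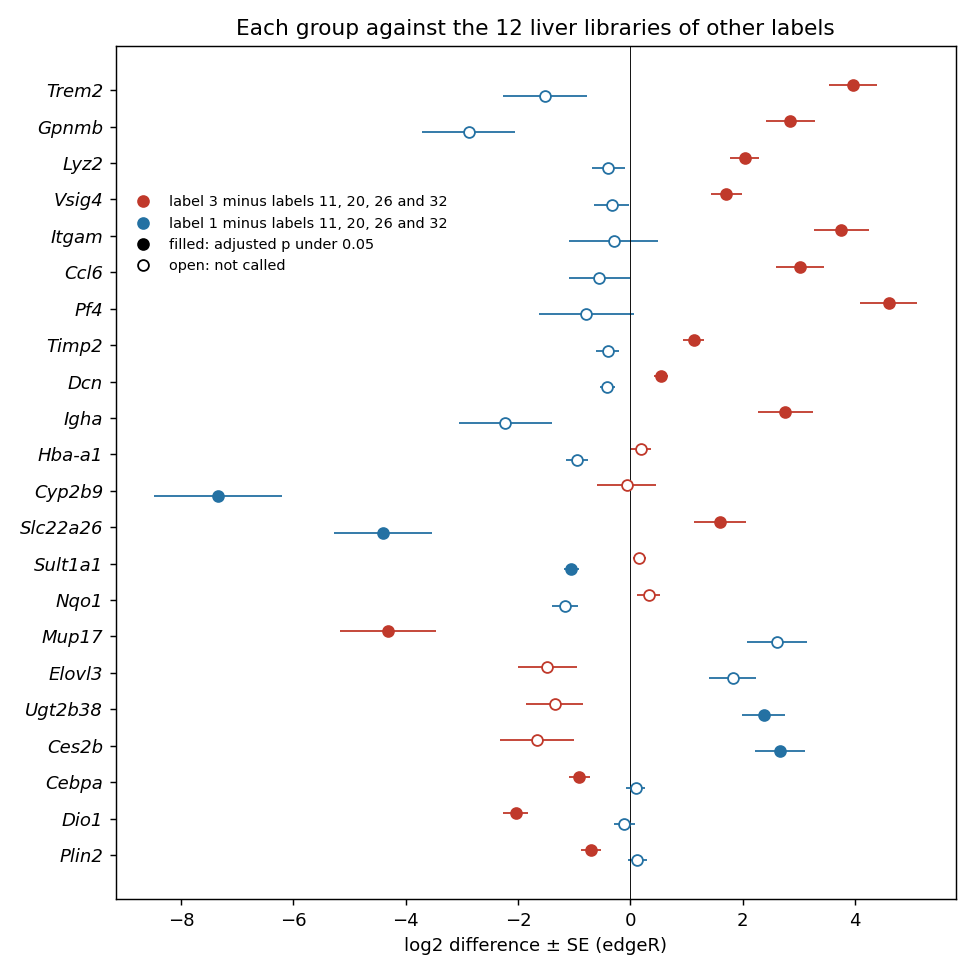
Log2 difference with its standard error (edgeR) between the 3-month libraries and the 12 libraries of other ages (red), and between the 1-month libraries and the same 12 (blue), for 22 genes. Filled points were called at an adjusted p below 0.05. Macrophage genes such as Trem2 and Lyz2 have filled red and open blue points, whereas Cyp2b9 and Sult1a1 have filled blue and open red points.

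Of the markers of other tissues, 2 of 9 for pancreas, 3 of 8 for fat, 1 of 8 for skeletal muscle, 1 of 8 for gut, 3 of 10 for kidney and 0 of 5 for testis and epididymis had counts high enough to be tested, and 0 held. The tested ones were not all low. Cela1, an elastase of pancreas, was at 10.3, 15.3 and 21.1 CPM at 1 month and 10.3, 5.87 and 9.80 CPM at 3 months (adjusted p = 0.0639). Car3, a carbonic anhydrase of fat and also of liver, was at 1758, 2635 and 3711 CPM at 1 month and 168, 766 and 2588 CPM at 3 months (adjusted p = 0.273), lowest in 3-month library 1. Fabp2, the fatty acid-binding protein of gut, was at 18.9, 18.1 and 34.4 CPM at 1 month and 14.5, 13.04 and 11.9 CPM at 3 months and was called lower with all libraries (adjusted p = 0.02) but not without 3-month library 1 (adjusted p = 0.0912). Kap of kidney stood out in 1-month library 1, as given above. Prss2 of pancreas was at 0, 0.0690 and 0 CPM at 1 month and 0.1999, 0.223 and 0.0594 CPM at 3 months, and Adipoq of fat at 0, 0.0690 and 0 CPM at 1 month and 0, 0.0371 and 0 CPM at 3 months. Ckm of skeletal muscle was at 0.194, 0 and 0 CPM at 1 month and 0.133, 0 and 0 CPM at 3 months. Epcam, a surface marker of bile duct cells, was at 0.680, 1.03 and 0.422 CPM at 1 month and 0.866, 0.780 and 1.54 CPM at 3 months. The summed level of the 14 neutrophil genes was 6.61, 28.6 and 4.22 CPM at 1 month and 925, 341 and 15.1 CPM at 3 months, and that of the Kupffer cell list 952, 1068 and 842 CPM at 1 month and 4112, 1539 and 929 CPM at 3 months. In both, 3-month library 1 was the highest and library 3 within or close to the 1-month range. Most of the neutrophil sum at 3 months was Lcn2, which stressed hepatocytes also make. It was at 2.14, 20.6 and 1.12 CPM at 1 month and 654, 290.2 and 10.6 CPM at 3 months. The part of either list in the differences of other genes was not tested.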

How the data were processed

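Livers were lysed, and the lysate was digested with RNases T1 and S7 to leave ribosome footprints, per the labels' protocols. Raw read counts for each gene and library, without normalization, were deposited by the authors. Cutadapt 1.14, STAR 2.5.3 and the mm10 build are named in the submitters' processing notes, and the counting tool and annotation are not given in the sources used here. Every column of the series table equalled the library's own table, and 49998 of 50222 gene identifiers matched a symbol.

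Tests used the robust quasi-likelihood F test of edgeR 4.0.16 (R 4.3.3), two-sided, after TMM scaling and a filterByExpr filter at a minimum count of 10, with Benjamini-Hochberg adjustment over all genes tested and a threshold of 0.05. All 18 liver footprint libraries were fitted together by age label, and again as 17 without 3-month library 1. Standard errors are the absolute log2 difference over the root of F. Log2 differences are TMM-scaled, while CPM values use library totals only. With 3 libraries a group, the smallest p of an exact permutation test is 0.1, so none was used.

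The members and gene lists were chosen with earlier results of these data known. The 57 lists hold 1034 genes, of which 1032 matched and 953 were tested. Named genes are Trem2 and Gpnmb, the 12 largest rises and falls among held genes of at least 5 CPM without overlap, and, for each list, up to 4 held members or up to 2 of highest level. Some of them are not reported here. Markers, members of the lists composed afterwards, and Capg, Mmp12, Clec7a, Cyp2a22 and Ighm were named after their values were seen. Predicted genes and antibody variable segments, 13 of the held genes, are counted but not named. Simulated counts for 13335 genes tested the procedure: it called 60% of genes changed by 1 on the log2 scale (40% with and without library 1), and 100% (100%) of those changed by 2. The simulation gave every gene the same spread, had no library that stands apart and changed only genes above 5 CPM. These shares therefore do not carry over to the more variable or less abundant genes of these data.

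Alternatives were DESeq2 1.42.0, RLE scaling, library size only, no filter, a minimum count of 50, the 6 compared libraries alone, a replicate block, omission of the 10 most abundant genes, and each compared library left out.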

Additional observations from a re-analysis of the deposited data

How the results depend on the processing

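The number of genes called between 3 months and 1 month stayed within 1.5 times of 1674 under DESeq2 (2217), RLE scaling (1676), library size only (1502), no filter (1380), a minimum count of 50 (1226), the replicate block (1252) and omission of the 10 most abundant genes (1676). It fell to 0 in the fit of the 6 compared libraries alone, with 2590 genes at an unadjusted p below 0.05 there, and ranged from 224 to 3240 over the fits that leave out 1 library. Genes that hold numbered 318 and moved to 694 with DESeq2, 179 with library size only, 846 with no filter, 0 with the compared libraries alone (2580 at an unadjusted p below 0.05 in the fit with all 6), 98 with the replicate block, and between 29 and 936 with a library left out. Of the 318, DESeq2 also held 317. Being called in all 6 leave-one-out fits, a criterion added after seeing the data, left 164 genes. Calls at 3 months against the other ages (2032) ranged from 109 to 3587 with a library left out. Calls at 1 month against the other ages (33) moved to 206 with DESeq2, 54 with library size only, 64 with no filter and 6 with the replicate block, and ranged from 1 to 65 with a library left out. The cause of these moves was not tested. Fits of the compared libraries alone have fewer libraries to estimate the spread, and their filter and scaling differ as well.

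Replicate numbers are not said to pair animals, and deviations of same-numbered libraries correlated by 0.0784, 0.109 and 0.132, so the numbers were not taken to pair them. Each library did correlate best with its own number, a hint from the data only. Of 85 held genes named in the text, 50 were called in all 6 fits that leave out 1 library, 33 were not called without 1-month library 3, and the 83 that the compared libraries alone allowed to be tested were not called there. DESeq2 called all 84 to which it gave an adjusted p, and gave none for Tcf24. The replicate block lost the call of Ces1g (adjusted p = 0.0569). Apart from the leave-out fits, these checks of named genes kept 3-month library 1, so a call kept there does not show that the gene holds. Over all genes tested, 318 held in the main setting and 98 with the replicate block. Depth limits genes near 0 CPM, such as Cyp2b9 at 1 month, where the fitted log2 difference depends on the prior count and is no bound.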

Other observations

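Among the 27 genes that held as higher and lay above all 15 other liver libraries in each 3-month library, several are in no list, and the ones named here were chosen after their values were seen. Vdr, the vitamin D receptor, was at 0.0972, 0.0690 and 0 CPM at 1 month and 0.999, 0.743 and 1.37 CPM at 3 months. Trpv4, a calcium channel, was at 0.680, 0.276 and 0.422 CPM at 1 month and 20.7, 3.68 and 1.01 CPM at 3 months, and Acvr2b, a receptor for activins, was at 4.28, 4.97 and 8.22 CPM at 1 month and 11.7, 14.9 and 12.1 CPM at 3 months. Idh2, the mitochondrial isocitrate dehydrogenase, was at 99.6, 93.2 and 80.8 CPM at 1 month and 153, 143 and 137 CPM at 3 months, a narrow and even difference of 0.56 ± 0.13 on the log2 scale. On the lower side, Aspg, an asparaginase, was at 171, 136 and 162 CPM at 1 month and 47.2, 87.6 and 89.0 CPM at 3 months, and Tigar, a fructose bisphosphatase, at 10.9, 11.8 and 14.8 CPM at 1 month and 7.33, 7.95 and 7.78 CPM at 3 months. In all 6 genes the groups did not overlap, which follows from choosing genes that lay beyond all 15 other liver libraries. Trpv4, Idh2, Aspg and Tigar were not called without 1-month library 3 (adjusted p = 0.0506, 0.0675, 0.0515 and 0.0598), and Acvr2b was not called without 1-month library 1, 1-month library 2 or 3-month library 2 (adjusted p = 0.0687, 0.0772 and 0.061).

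Olfr701, an olfactory receptor gene, had 0 CPM in the 3 libraries labelled 1 month, 3.46, 6.98 and 2.61 CPM in those labelled 3 months and 0 to 5.25 CPM (median 1.52) in the other 12. It held, and no fold is given because the 1-month libraries are at 0.

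Levels at other ages, which enter the comparison only through the spread, the filter and the scaling, did not follow the order of the age labels. Trem2 was at 2.88, 1.60 and 3.14 CPM at 32 months and 0.545, 0.310 and 0.365 CPM at 11 months, against 31.4, 11.7 and 2.38 CPM at 3 months. Mup17 was at 6.32, 32.8 and 13.6 CPM at 11 months and 143, 438 and 279 CPM at 20 months, so the 11-month libraries were near the 3-month level of 4.73, 6.50 and 14.7 CPM. Cyp2b9 was at 92.3, 83.6 and 65.4 CPM at 11 months, above every library of the other ages. Afp, a gene of fetal liver, had means of 1.38, 2.33 and 3.71 CPM at 1, 3 and 11 months and at most 0.484 CPM on average at the later labels.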
